A study of Mus musculus with 3 samples.

Results

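The account covers 8 genes for regulators of G protein signalling, Rgs1, Rgs2, Rgs3, Rgs10, Rgs14, Rgs16, Rgs18 and Rgs19, taken by their GENCODE M21 gene names from the deposited gene and transcript tables. They are 8 of the 55536 genes measured and have 54 annotated transcripts. A further 16 genes that carry the family's name were measured, among them Rgs7bp and Rgs9bp, which are named as binding proteins. Polyadenylated RNA came from inflammation-experienced regulatory T cells (Tregs), CD4 T cells that restrain immune responses under the transcription factor Foxp3. The cells were from an adult male mouse aged 6 months of the strain Foxp3CreERT2 x Rosa26YFP, in which Foxp3 drives a tamoxifen-dependent Cre recombinase and the Rosa26 locus holds a YFP reporter. There was 1 biological replicate with 3 technical replicates, called library 1, 2 and 3 after their label numbers, and no other group. The labels name no separate animals behind the libraries, so the tests below measure differences between these libraries only.

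A receptor coupled to a heterotrimeric G protein loads GTP onto the alpha subunit, which then parts from the beta and gamma subunits and signals until the GTP is hydrolysed. Regulators of G protein signalling carry an RGS domain that binds the active alpha subunit and speeds this hydrolysis, so they shorten the signal. In lymphocytes the receptors concerned include those for chemokines and sphingosine 1-phosphate, which guide cells through lymphoid tissue and into inflamed sites.

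The libraries held 10667765 to 14136139 estimated counts on genes. The 6 T cell and Treg markers, Foxp3 among them, were detected in every library, with summed levels of 3760 to 3940 TPM (a level scaled to library size and corrected for transcript length). Foxp3 itself had 17.96, 14.25 and 16.01 TPM in libraries 1, 2 and 3. RNA of other cell types was present at lower levels and unevenly. The summed levels of 5 B cell genes were 20.5, 45.2 and 57.5 TPM, those of 5 macrophage genes 3.25, 36.2 and 14.3 TPM, and those of 4 erythroid genes 3.87, 50.4 and 282 TPM in libraries 1, 2 and 3.

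Detection was set at 1 TPM in each of the libraries. Of the 8 genes, 7 reached it, whereas 12470 of all 55536 genes, or 22.5%, did. Rgs1 was the most abundant and Rgs18 was at the edge of detection. Models annotated for nonsense-mediated decay took 72.5% of the Rgs1 TPM and 32.1% of the Rgs2 TPM, and the sequences in which their leading models part from coding ones show what the annotation calls noncoding. In Rgs2 coding models were nonetheless the largest class, and in Rgs3, described further on, retained-intron models were. In each pair of lines, the shared exon end is in lower case and the bases that follow it in that model are in capitals. For Rgs1-204 and Rgs2-201 the capitals are 1 base followed by the stop codon TAA. All lie on the minus strand of chromosome 1 of GRCm38 and are read 5′ to 3′ from the GENCODE M21 transcripts. The Rgs1 exon end is chr1:144248901-144248930, followed by chr1:144248530-144248559 in Rgs1-208 and by chr1:144248605-144248608 in Rgs1-204. The Rgs2 exon end is chr1:144002952-144002981, followed by chr1:144002812-144002841 in Rgs2-202 and by chr1:144002948-144002951 in Rgs2-201.
Rgs1-208, protein coding: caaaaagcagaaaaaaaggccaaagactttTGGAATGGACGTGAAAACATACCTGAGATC
Rgs1-204, nonsense-mediated decay: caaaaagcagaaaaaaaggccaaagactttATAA
Rgs2-202, protein coding: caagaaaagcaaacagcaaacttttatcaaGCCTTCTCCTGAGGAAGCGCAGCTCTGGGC
Rgs2-201, nonsense-mediated decay: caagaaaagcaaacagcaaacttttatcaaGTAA

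Rgs1, Rgs2, Rgs3, Rgs16 and Rgs18 belong to the R4 subfamily, most of whose proteins are little more than an RGS domain behind a short membrane-binding helix. Rgs1 is a GTPase activator for the alpha i and q subunits that damps chemokine receptor responses in lymphocytes. It had 232.5, 267 and 379 TPM in libraries 1, 2 and 3, from 2755, 3738 and 4223 estimated counts. Its lowest library lay above the highest value of each of the other genes, and its mean of 293 ± 76.5 TPM (SD, n = 3 libraries) ranked 525 among the 55536 genes. The gene (ENSMUSG00000026358.13) lies at chr1:144242296-144249242 on the minus strand.

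Rgs3, a longer R4 gene with forms that carry a PDZ domain and forms that do not, had 56.8, 49.9 and 53.5 TPM. Rgs16, which acts on alpha i and q subunits and is known to be induced in activated T cells, had 24.95, 27.85 and 22.3 TPM. Rgs2, which prefers the alpha q subunit, had 13.76, 18.21 and 36.1 TPM. The Rgs2 level in library 3 was above every Rgs16 value and its levels in libraries 1 and 2 were below every Rgs16 value, so the ranges of these 2 genes overlapped. Rgs18, known from platelets, megakaryocytes and myeloid cells, had 0.06, 0.28 and 0.24 TPM from 1, 6 and 4 counts. A count of 0 is compatible with up to 3 counts, so the Rgs18 values were too low to set the libraries apart. The summed levels of 5 platelet and megakaryocyte genes were 0.59, 1.73 and 1.56 TPM in the same libraries, none of these genes being detected. The part of such cells in the Rgs18 counts was not tested.

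Rgs10 and Rgs14 belong to the R12 subfamily. Rgs10, a small protein with an RGS domain for alpha i subunits, had 59.1, 42.3 and 72.6 TPM. Rgs14, which joins its RGS domain to Ras-binding domains and to a GoLoco motif that holds alpha i in its GDP-bound state, had 54.29, 49.99 and 47.45 TPM. Rgs19, also called GAIP, is an RZ subfamily member with a cysteine string that acts on the alpha i group. It had 123.35, 122.4 and 129.84 TPM, the second highest level of the 8 genes, and its mean of 125 ± 4.05 TPM (SD, n = 3) ranked 1202 among all genes.

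**Figure D1:**
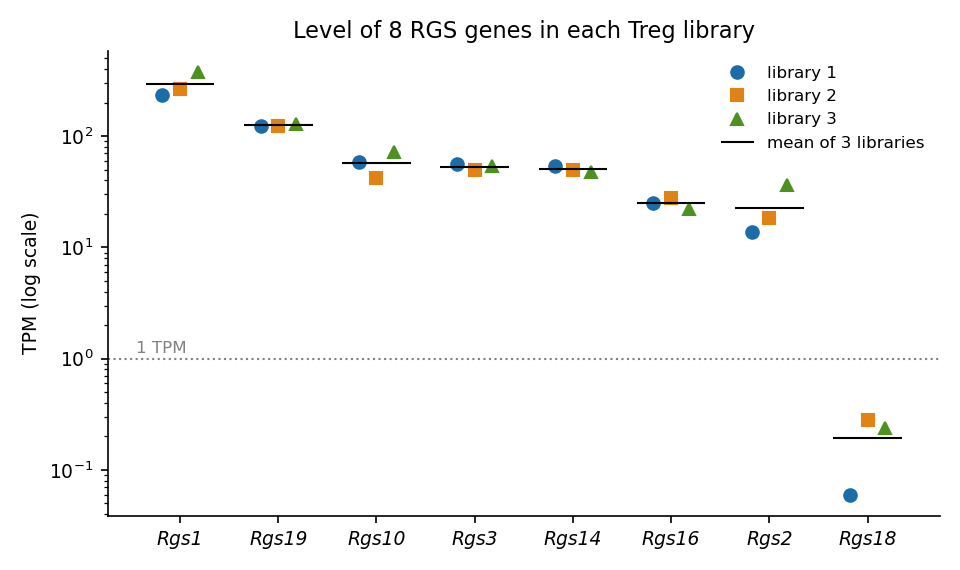
Level of each of the 8 genes in TPM on a log axis, with a point for each library and a bar for the mean. Rgs1 stands highest at 232.5 to 379 TPM, Rgs10, Rgs3 and Rgs14 lie together, and Rgs18 is below 0.3 TPM in all 3 libraries.

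By mean TPM the order was Rgs1, Rgs19, Rgs10, Rgs3, Rgs14, Rgs16, Rgs2 and Rgs18. For neighbours in this order, log2(TPM + 0.1) was subtracted library by library and the 3 differences went into an exact permutation test of their signs, two-sided, which cannot give a p below 0.25. Rgs1 exceeded Rgs19 by 1.19 ± 0.321 (SD), Rgs19 exceeded Rgs10 by 1.14 ± 0.354, Rgs14 exceeded Rgs16 by 1.02 ± 0.151 and Rgs2 exceeded Rgs18 by 6.25 ± 0.593. In these 4 of 7 neighbouring pairs every library gave the same direction and the values did not overlap, with an exact permutation p of 0.25 each. The other pairs overlapped. Rgs10 and Rgs3 differed by 0.09 ± 0.339, Rgs3 and Rgs14 by 0.08 ± 0.0891, and Rgs16 and Rgs2 by 0.26 ± 0.831, with exact permutation p of 0.75, 0.5 and 0.75. Rgs10, Rgs3 and Rgs14 were therefore not placed in order by these data, nor were Rgs16 and Rgs2.

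The transcript tables divided the RNA of the 8 genes very differently between coding and noncoding models. At least 50% of the TPM went to coding transcripts in 5 of the 8 genes. The models of Rgs16 and Rgs18 are 1 coding transcript each. Coding transcripts of Rgs10 took 98.5% ± 1.53, those of Rgs19 95.0% ± 2.13 and those of Rgs14 94.4% ± 5.56 of the TPM of their gene (SD, n = 3). Rgs10-201 alone held 96.28%, 97.03% and 99.46% in libraries 1, 2 and 3. Rgs14-201 held 96.87%, 87.98% and 98.22%, with library 2 the lowest. By the posterior mean, a second deposited estimate of the shares, it held 87.01%, 82.55% and 87.95%. The retained-intron model Rgs14-202 had 10.7, 60.9 and 0 estimated counts in libraries 1, 2 and 3. The posterior SDs of these counts, which rise with doubt about where reads belong, were 49.46, 40.97 and 29.76 reads. The lower share in library 2 was therefore uncertain. Rgs19-201 led its gene with 69.21%, 60.04% and 67.6%, and by the posterior mean with 56.83%, 54.61% and 54.72%. Rgs19-206 and Rgs19-212 share their coordinates and length and were given identical estimated counts, so the division between them is arbitrary.

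Rgs1 was at the other end. Its 2 coding models together took 0.103%, 1.16% and 2.67% of its TPM in libraries 1, 2 and 3, which is 0.24, 3.09 and 10.1 TPM. Most of the spread came from Rgs1-207, which had 0, 11 and 28.8 estimated counts with posterior SDs, a measure of how surely the model placed reads, of 7.92, 10.06 and 14.36 reads, so its assignment was uncertain in each library. Transcripts annotated for nonsense-mediated decay, the pathway that removes messages with an early stop codon, took 72.9%, 73.2% and 71.4%. Retained-intron models took 26.9%, 25.7% and 26.0%. The shares of these noncoding classes had SDs of 0.981 and 0.662 percentage points over the libraries. As shares of estimated counts the SDs were 2.05 and 1.73 points. The level of the gene had a CV of 26.1%, a relative measure that is not on the scale of these points. Rgs1-204, shown above, was the leading transcript with 60.4%, 62.33% and 57.26%. It was followed by the retained-intron model Rgs1-203 with a mean of 23.2%, and by Rgs1-206 and Rgs1-202, both annotated for decay, with 7.05% and 5.33%.

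**Figure D2:**
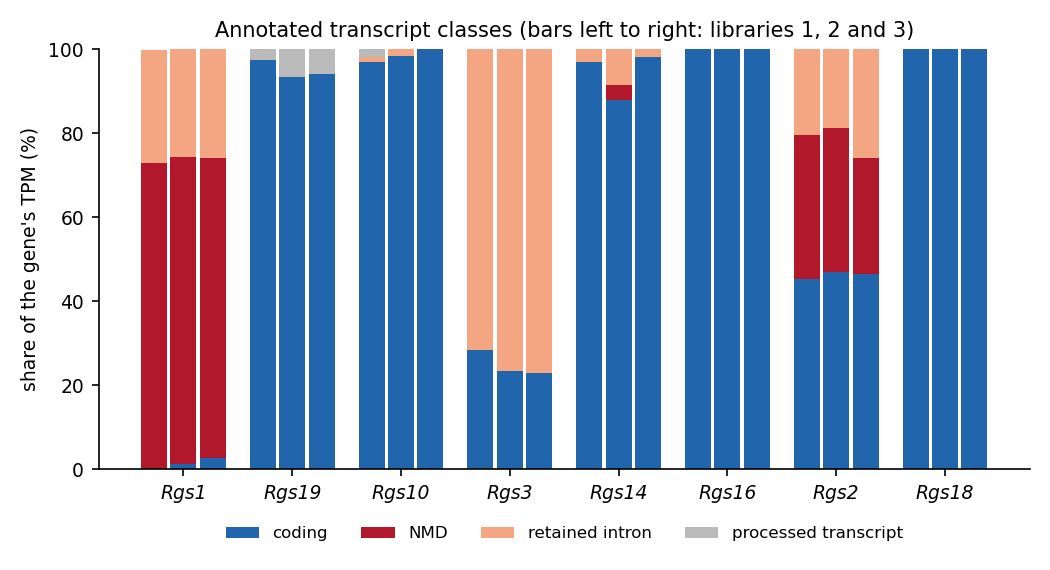
Share of each gene's TPM assigned to protein-coding, nonsense-mediated decay, retained-intron and other transcripts, on an axis in percent. Each gene has a stacked bar for libraries 1, 2 and 3, from left to right. As means of the 3 libraries, coding transcripts take nearly all of Rgs10, Rgs14, Rgs16, Rgs18 and Rgs19. They take 46.2% of Rgs2, 24.8% of Rgs3 and 1.31% of Rgs1.

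The annotated exons show where Rgs1-204 and the coding Rgs1-208 differ. Both have 5 exons and share exons 3 and 4. Exon 2 has 130 bases in Rgs1-204 and 81 in Rgs1-208, because Rgs1-204 begins it 49 bases further upstream, which brings in the stop codon. The coding model also runs 2377 bases past the 3′ end of Rgs1-204, for lengths of 3841 and 1328 bases. Rgs1-207, the other coding model, skips exon 2. No coding Rgs1 model in the annotation ends where Rgs1-204 ends. The tables give no reads per junction, so whether the reads counted for Rgs1-204 carry the 49 bases cannot be told from them. The posterior SD of the Rgs1-204 count was 40.43, 45.86 and 46.42 reads in libraries 1, 2 and 3 for about 1630, 2320 and 2300 reads.

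**Figure D3:**
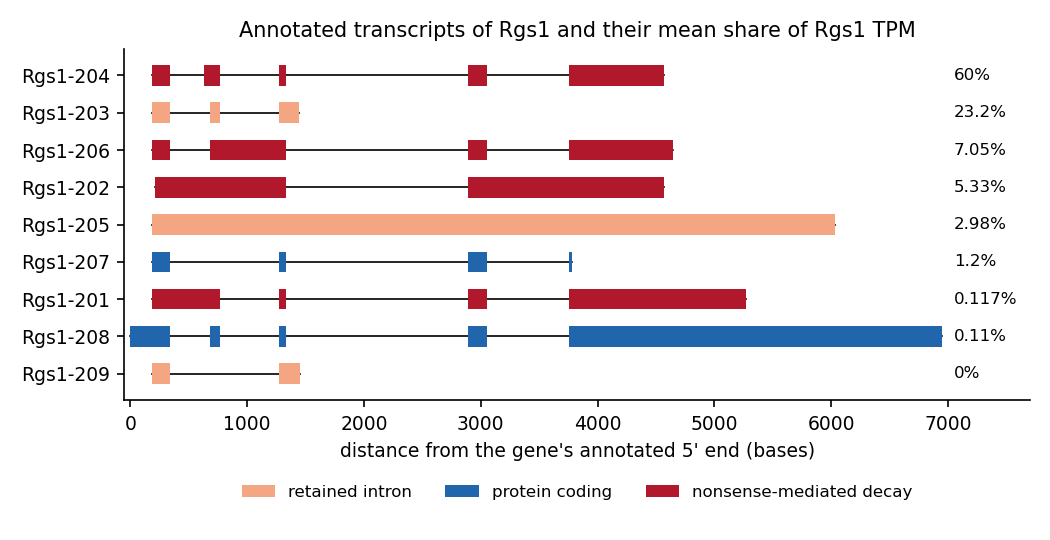
Exons of the annotated Rgs1 transcripts drawn 5′ to 3′ by distance in bases from the start of the gene, with the class and the mean share of the Rgs1 TPM beside each. Rgs1-204 holds 60.0% and ends 2377 bases before the coding Rgs1-208, which holds 0.11%.

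Rgs2 and Rgs3 lay between these extremes. Coding transcripts took 45.4%, 46.9% and 46.4% of the Rgs2 TPM in libraries 1, 2 and 3, decay transcripts 34.2%, 34.4% and 27.8%, and the retained-intron model 20.4%, 18.7% and 25.8%. Rgs2-201, the decay model shown above, keeps an intron of 110 bases whose first bases hold the stop codon. It is 763 bases long, against 3021 for the coding Rgs2-202, which runs 2342 bases past it. Because TPM divides by length, coding models took a larger share of the Rgs2 estimated counts, 67.0%. Coding transcripts took 28.4%, 23.3% and 22.8% of the Rgs3 TPM, and retained-intron models took the remaining 71.6%, 76.7% and 77.2%. Rgs3-214 and Rgs3-209, both retained-intron models, led with means of 31.2% and 26.6%. The leading coding transcript, Rgs3-203, had 14.12%, 8.6% and 12.39%, while the long coding models Rgs3-201 and Rgs3-202 were listed at 0 in all 3 libraries. The mean coding level was 13.3 ± 2.45 TPM for Rgs3 and 10.5 ± 5.52 TPM for Rgs2, against 53.4 ± 3.48 and 22.7 ± 11.8 TPM for the whole genes (SD, n = 3).

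Differences between the libraries were set against counting noise with a chi-square test per gene, using edgeR's TMM-adjusted library sizes and Benjamini-Hochberg adjustment over all genes whose mean count reached 10. The test treats reads as independent. Of 13970 genes tested, 6388 had an adjusted p under 0.05, or 45.7%, and 5 of the 7 genes tested here did. The median fold between the highest and the lowest library was 1.31 for these 7 genes and 1.26 for all genes tested. Where the 16.9% variation between libraries that edgeR estimated as common to all genes was added to counting noise, 460 of the 13970 genes passed, or 3.29%, and 0 of the 7 genes did. At an unadjusted p under 0.05 that fit took 1256 genes, or 8.99%, and 1 of the 7, Rgs2. Without library 3, counting noise alone gave 2978 genes and 2 of the 7, Rgs1 and Rgs10.

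Rgs1, Rgs2 and Rgs10 were highest in library 3, as were 2264 of all genes tested, or 16.2%, that differed between libraries. Rgs1 had 234, 270 and 384 CPM (counts scaled to the TMM-adjusted library size) in libraries 1, 2 and 3, a fold of 1.64 between library 3 and library 1 (log2 0.71, adjusted p 2.07e-101). Its chi-square per degree of freedom of 237 ranked 54 among the genes tested. Rgs2 had the largest fold of the genes tested here, with 12.4, 15.6 and 27.8 CPM and a fold of 2.24 (log2 1.17, adjusted p 3.01e-17). With the common variation between libraries added, the adjusted p was 0.0704 for Rgs2 and 0.734 for Rgs1. Rgs10 had 37.1, 27.4 and 45.4 CPM, a fold of 1.66 between library 3 and library 2 (log2 0.73, adjusted p 1.09e-11). All 3 also passed in the whole-number counts on the older GENCODE M4 annotation, as did 2157 of 10013 genes tested there, or 21.5%. Without library 3, the log2 difference between libraries 2 and 1 was 0.21 for Rgs1 (adjusted p 2.53e-07) and 0.33 for Rgs2 (0.109), and that between libraries 1 and 2 was 0.44 for Rgs10 (0.000199). Without library 2, Rgs10 differed by 0.29 between libraries 3 and 1 (adjusted p 0.00913).

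**Figure D4:**
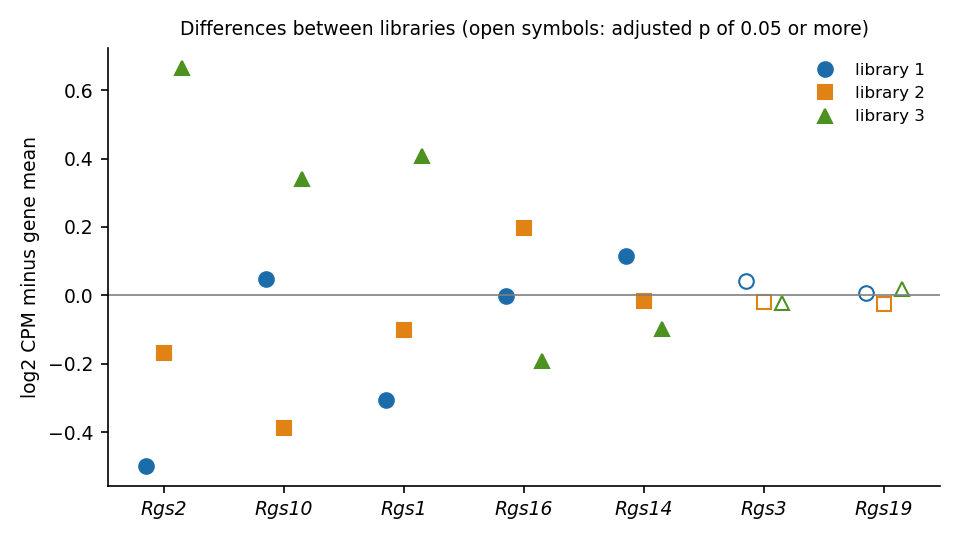
Difference of each gene tested from its mean over the 3 libraries, in log2 CPM, with a point for each library. Rgs2 spans the widest range, 1.17 between library 3 and library 1, while Rgs3 and Rgs19 span 0.06 and 0.04.

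Rgs14 and Rgs16 differed less. Rgs14 had 95.9, 87.5 and 82.6 CPM, a fold of 1.16 between library 1 and library 3 (adjusted p 0.00818). Rgs16 had 43.9, 50.4 and 38.5 CPM, a fold of 1.31 between library 2 and library 3 (adjusted p 0.000269). Neither passed in the whole-number counts, where the adjusted p was 0.14 for Rgs14 and 0.164 for Rgs16. The log2 differences there were 0.2 for Rgs14 and 0.39 for Rgs16, against 0.22 and 0.39 in the estimated counts. The whole-number tables hold fewer counts for both genes. Rgs14 also missed the threshold without library 1 (adjusted p 0.39) and without library 3 (0.0906), and Rgs16 without library 2 (0.118) and without library 3 (0.0723). Rgs19 had 129, 126 and 130 CPM and Rgs3 had 102, 97.7 and 97.4, with adjusted p of 0.752 and 0.608. Their folds of 1.03 and 1.04 were the smallest of the 7 genes.

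**Figure D5:**
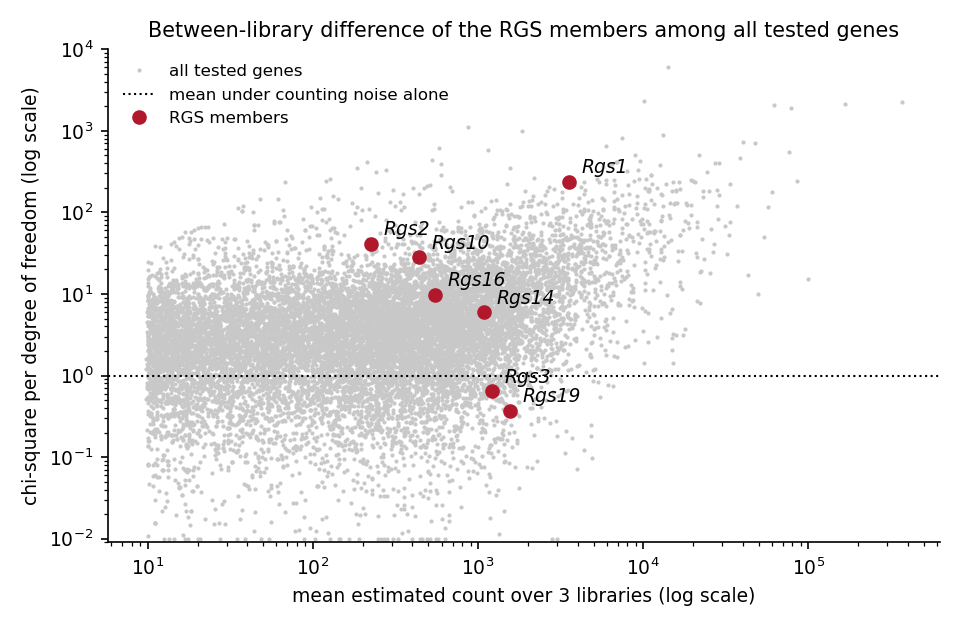
Chi-square per degree of freedom between the 3 libraries against mean estimated count for the 13970 genes tested, on log axes, with the 7 tested genes named and values under 0.01 drawn at 0.01. Rgs1 lies at 237, Rgs2 at 41.2 and Rgs10 at 28.0, while Rgs3 and Rgs19 lie below 1.

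Genes of other lists also differed between libraries. Of 18 immediate early genes, which are induced within a short time of stimulation or cell dissociation, 17 were tested and 14 differed between libraries, against 45.7% of all genes tested. Of these 14, 7 were highest in library 3, 5 in library 2 and 2 in library 1. The summed level of the list was 586, 581 and 682 TPM in libraries 1, 2 and 3. Zfp36, which binds AU-rich messages and promotes their decay, had 81.8, 79.8 and 114 TPM and was highest in library 3. The other two named by the rule, Btg2, an antiproliferative gene, and Klf6, a zinc finger transcription factor, had their highest CPM in library 1. Btg2 had 143.67, 133.86 and 135.17 TPM, and Klf6 had 203, 177 and 181 CPM (adjusted p 9.12e-06). All 5 B cell markers differed between libraries, 3 of them highest in library 3 and 2 in library 2, and all 4 erythroid genes were highest in library 3. The 2 CD8 T cell genes differed and were highest in library 3. Of 4 macrophage genes tested, 3 differed, all highest in library 2, as was the 1 neutrophil gene tested. The 3 NK cell genes tested differed, 2 highest in library 2 and 1 in library 3. The 3 plasma cell genes tested differed, 2 highest in library 3 and 1 in library 1. None of the B cell and erythroid genes was at 0 in all libraries. The part of stimulation, dissociation or other cells in the Rgs1, Rgs2 and Rgs10 differences was not tested, and in bulk RNA more cells that express a gene and more of its RNA per cell cannot be told apart.

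Likeness to Rgs1 was measured as the distance between the log2 deviations of the 3 libraries from their mean, over 73 pathway, family and marker genes whose mean count reached 100. The nearest were Junb, an AP-1 subunit, at 0.0505, Cd79b, a B cell receptor subunit, at 0.0958, and Gnb5, a G protein beta subunit, at 0.141. Gnb5 itself narrowly missed the threshold of the test between libraries (adjusted p 0.0519). Rgs1 deviated by -0.31, -0.10 and 0.41 in libraries 1, 2 and 3, and Junb by -0.35, -0.09 and 0.44. With 3 points, of which the deviations sum to 0, this is a description only.

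Several of the 8 genes lie in clusters of the family on chromosome 1. Rgs2, Rgs13, Rgs1, Rgs21 and Rgs18 follow each other on the minus strand between 143999338 and 144775435, with gaps of 134, 64.9, 267 and 185 kb. Rgs13 and Rgs21, the family genes nearest to Rgs1 on either side, had 0 counts in all 3 libraries. This allows at most 0.254, 0.212 and 0.281 CPM in libraries 1, 2 and 3. Rgs16 lies 40.0 kb from Rgs8, which had 0.21, 0.54 and 0.1 TPM. The most abundant gene of the family thus lay between family genes to which no read was assigned. Genes outside the family in these gaps were not examined.

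The promoter of Rgs2 is shown because Rgs1 and Rgs2 share a chromosome, a strand and the library in which they were highest. The 250 bases before the RefSeq start lie at chr1:144004150-144004399 of GRCm38.p6 on the minus strand and are given 5′ to 3′ in lower case. None of 6 motifs searched on both strands was found in it.
Rgs2 promoter: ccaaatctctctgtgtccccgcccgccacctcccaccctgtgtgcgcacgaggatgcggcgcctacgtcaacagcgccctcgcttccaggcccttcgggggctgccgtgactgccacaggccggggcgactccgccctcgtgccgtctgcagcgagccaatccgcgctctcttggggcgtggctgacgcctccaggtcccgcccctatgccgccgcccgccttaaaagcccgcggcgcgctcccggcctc

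The TATA box, as TATAAA, was found in 12.4% of all promoters in the RefSeq table. The cyclic AMP response element, as TGACGTCA, was found in 1.55%, and the AP-1 motif, as TGANTCA, in 6.75%. The NFAT core, as GGAAA, was found in 55.6%, the RUNX motif, as TGNGGT, in 40.1%, and the NF-kappaB motif in 0.356%. Promoters of 5 of the 8 genes were in that table, 1 each for Rgs2, Rgs10 and Rgs16, 2 for Rgs3 and 3 for Rgs19. Rgs10 also held none of the motifs, and Rgs16 held the RUNX motif. The Rgs19 entry with lowest coordinate chr2:181691768 held the NFAT core and the RUNX motif. The entry at 181693928 held the NFAT core only, and that at 181693761 held none. The Rgs3 entry at chr4:62559597 held the TATAAA motif only. The entry at 62619422 held TATAAA, the NFAT core and the RUNX motif. The Rgs3 TATAAA matches lay at -100 and -177 from the start site. These are matches of letters in a window and no measure of binding.

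Of the 16 further genes that carry the family's name, 3 were detected, and their highest values lay below the lowest of the 7. Rgs12, a large protein with PDZ and GoLoco parts, had 5.8, 8.5 and 5.54 TPM in libraries 1, 2 and 3. Rgs11, an R7 subfamily member that pairs with Gnb5, had 4.19, 3.75 and 2.3 TPM. Rgs9, of the same subfamily and known from photoreceptors and striatum, had 2.75, 3.32 and 3.55 TPM. The other 13 had at most 0.54 TPM and 18 counts in any library. Of the 4 further genes with enough counts for the test between libraries, 2 passed, Rgs12 and Rgs11.

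Alpha subunits of the i and q groups, on which these proteins act, were present, as were alpha subunits of other groups. Gnai2, the main alpha i subunit downstream of chemokine receptors, had 193, 210 and 216 TPM in libraries 1, 2 and 3, and Gnai3 had 100, 112 and 92.5 TPM. These were the 2 detected members of 5 alpha i and z genes, and both differed between libraries, each with its highest CPM in library 2. In TPM Rgs1 was above Gnai2 in each library, but in CPM, which do not divide by length, Rgs1 had 234 and 270 against 293 and 326 for Gnai2 in libraries 1 and 2. The Rgs1 TPM rests on an effective length of 1310 bases, which depends on how reads were assigned to its models, and the Gnai2 TPM on 1970 bases. Of 4 alpha q genes, 3 were detected, Gna15 at 82.0 ± 17.0, Gna11 at 23.1 ± 2.0 and Gnaq at 19.1 ± 4.86 TPM (SD, n = 3), and all 4 differed between libraries. Gnaq was highest in library 3, as Rgs2 was, and Gna15 was highest in library 1. Gnas, the alpha subunit that activates adenylyl cyclase, had 97.7 ± 3.84 TPM. Gna13 had 51.0 ± 4.74 TPM and did not pass the test between libraries (adjusted p 0.149).

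Other subunits and partners of the pathway were also present. Of 5 beta subunit genes, 4 were tested and 1 differed between libraries, Gnb4, while Gnb1 led the list at 268 ± 5.47 TPM (SD, n = 3). Of 10 gamma subunit genes, 5 were detected, with Gng5 at 287 ± 5.50, Gng10 at 156 ± 8.70 and Gng2 at 79.6 ± 4.68 TPM, and 2 differed. Gng7, Gng8 and Gng13 had 0 counts in all libraries. Among 7 receptor kinases and arrestins, which end receptor signalling at the receptor itself, 6 were detected and 4 differed, with Arrb2 at 93.7 ± 8.69 and Grk2 at 71.6 ± 4.36 TPM. All 9 other genes with an RGS or RGS-like domain were detected and 3 differed, with Arhgef1 highest at 94.5 ± 5.59 TPM. Gpsm3, a GoLoco protein that binds alpha i subunits, had 211, 188 and 218 TPM and an adjusted p of 0.0482. It was the most abundant of 7 GoLoco and RIC8 genes, of which 5 were detected and 2 differed. Of 11 effector genes, 7 were detected and 5 differed, among them Adcy7, an adenylyl cyclase, at 81.3 ± 5.91, and Plcb4, a phospholipase C activated by alpha q, at 27.3 ± 7.34 TPM. Set beside the 45.7% of all genes that differed between libraries, these counts describe the lists and set none of them apart.

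Limits of the counts touch some of the genes. The whole-number tables held 28.2%, 24.3% and 22.9% of the Rgs1 estimated count in libraries 1, 2 and 3, against 25.3%, 24% and 25.6% over all genes. The same share was 16.7%, 17.8% and 16.0% for Rgs3 and 56.9%, 55.6% and 57.4% for Rgs14, so the order of these genes depends on which table is read. Rgs10 overlaps Gm15503 on the same strand, which had 18, 6 and 32 counts, lowest in library 2 and highest in library 3 as Rgs10 was, beside 437, 379 and 500 counts for Rgs10. The overlap is one of gene spans, and whether exons overlap was not examined. Any reads from shared exons could not be told apart by strand. The posterior SD of the Rgs10 gene count was 0.0 in each library. The part of Gm15503 in the Rgs10 difference was not tested. Rgs3 and Rgs16 overlap antisense genes with at most 12 and 4 counts, and the strand setting of the counting is not given in the sources used here.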

How the data were processed

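Per the deposited description of each file, the tables rest on mm10 with GENCODE M21 (estimated counts) and GENCODE M4 (whole-number counts). Per the file headers, the first 2 tables follow the RSEM layout. The authors gave estimated counts per gene and transcript, with reads of several possible origins shared by a model. The authors made TPM from these counts and an effective length, and the deposited percent of each transcript is its share of the gene's TPM. The deposited posterior SD of a count is a signal that rises with doubt about where reads belong. The deposited whole-number count per gene was used as an alternative. Not given in the sources used here are aligner, versions, read length, strand and duplicate handling.

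Estimated counts were rounded. TMM factors were 0.994, 0.976 and 1.03 in libraries 1, 2 and 3 (edgeR 4.0.16, R 4.3.3). A Poisson chi-square test of homogeneity was run for the 13970 genes whose mean count reached 10, with Benjamini-Hochberg adjustment and a threshold of 0.05, and was tested on simulated data. edgeR's quasi-likelihood test needs groups and was not run. The pseudocount was 0.1 TPM. The largest and smallest gene totals were 14136139 and 10667765. Limits from counts cover counting error only. The members and lists were chosen with earlier results of these data known. By rule the text names all members, other family genes that were detected or at 0 counts, up to 3 genes of highest mean TPM per partner list, the 3 genes most like the member with the largest chi-square, and transcripts with a mean share of 5% or more. Rgs8 and transcripts under 5% were named after their values were seen. Protein sequences were not used here.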

Additional observations from a re-analysis of the deposited data

How the results depend on the processing

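The number of genes that differed between libraries was 6388. It was 460 with edgeR's common dispersion, 2157 of 10013 with whole-number counts, and 2978 to 4765 when each library was left out, lowest without library 3. The number among the 7 genes tested was 5, and it was 0, 3 and 2 to 4 in the same settings, again lowest without library 3. The whole-number tables hold fewer genes and fewer counts, and each run without a library has 2 libraries instead of 3. The cause of the lower numbers was not tested. Both numbers stayed within 1.5 times under DESeq2 size factors, total counts, no filter, a minimum of 100 counts and an added posterior SD. Without library 1, the Rgs3 difference of library 2 over library 3 was -0.01 on the log2 scale, in a range of -0.01 to 0.06 over the libraries left out, and the mean of Rgs16 minus Rgs2 was -0.04, with values for that pair of -0.04 to 0.73 when each library was left out. Rgs10 minus Rgs3 was -1.46 in CPM, which do not divide by length, and -0.09 to 0.25 when each library was left out. Rgs3 minus Rgs14 was -1.59 in CPM of whole-number counts. Of the neighbouring pairs, 4 to 6 of 7 kept 1 direction in all libraries in the settings tried. By the posterior mean, the mean shares of Rgs19-201, Rgs14-201 and Rgs10-201 were 55.4%, 85.8% and 91.3%, against 65.6%, 94.4% and 97.6%. Those of Rgs3-214 and Rgs3-209 were 27.1% and 23.7%, against 31.2% and 26.6%. No paired analysis was possible because there is 1 group. Depth limits Rgs18, with at most 6 counts in a library.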
